A study of Mus musculus with 8 samples.

Results

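The dual specificity phosphatases are described here through 8 of their genes, Dusp1, Dusp4, Dusp5, Dusp6, Dusp8, Dusp10, Dusp16 and Dusp26, which were taken by symbol from the 24 Dusp symbols and the 30406 genes listed in every library. The genes were chosen by a measured value, the higher Dusp4 level with nitric oxide in islet endocrine cells other than β-cells, so the values of those cells in that contrast are given as a description with no test. Single-cell RNA-sequencing was performed on islets of male C57BL/6 mice (C57BL6/J in the study's methods) that were 12 to 16 weeks old. Islets of 10 mice were pooled for each of 2 replicates and the pool was divided into 4 conditions, so that 8 libraries were made and no mouse can be told from another. For 18 h the intact islets were left untreated, received IL-1β (10 U/mL) and IFN-γ (150 U/mL), called cytokines below, received the same cytokines with 2 mM NMMA, or received NMMA alone. NMMA (NG-monomethyl-L-arginine) inhibits nitric oxide synthase, and the cytokines induce the inducible enzyme, encoded by Nos2, in β-cells. The difference between cytokines and cytokines with NMMA is therefore the part of a response that depends on nitric oxide synthase activity.

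Most of these phosphatases are MAP kinase phosphatases, which remove phosphate from both the threonine and the tyrosine of the activation loop of ERK, JNK and p38 and thereby switch these kinases off. Many of the genes are themselves induced by MAP kinase signalling, so the enzymes act as negative feedback on the pathways that raise them. In islets, IL-1β activates NF-κB together with JNK and p38. Dusp1 (MKP-1), Dusp4 (MKP-2) and Dusp5 encode nuclear enzymes, of which Dusp5 acts on ERK. Dusp6 (MKP-3) encodes the cytoplasmic ERK phosphatase, Dusp8, Dusp10 (MKP-5) and Dusp16 (MKP-7) encode enzymes that act on JNK and p38, and Dusp26 encodes an atypical member without the kinase-docking domain of the others.

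The 8 libraries held 26549922 to 50731370 UMIs, and 10876 of 17426 barcodes passed the filters on genes and mitochondrial UMIs. Clusters were named from hormone and lineage markers. They gave 6351 β-cells, 1073 non-β endocrine cells (631 α-cells, 336 δ-cells and the cells of a Ppy-led cluster), 324 macrophages and 282 endothelial cells, names that stand for marker-like cells throughout. Clusters of 767, 745, 586 and 80 barcodes with few UMIs stayed unnamed and entered no class. The cluster of 745 held 220 barcodes of cytokine replicate 2 and 467 of cytokines with NMMA replicate 2, against 16 and 30 in replicate 1. The cluster of 586 held 530 of untreated replicate 2. Different clusters held most of a class with and without cytokines, for example clusters led by Ppp1r1a and Slc2a2 against clusters led by Il4i1 or Cfb among β-cells, and a cluster led by Esm1 and Fabp4 against a cluster led by Timp3 and Ly6c1 among endothelial cells. The δ-cells of cytokine replicate 1 numbered only 7 and gave no value. Levels are CPM, the UMIs of a gene per 1000000 UMIs of all cells of the class in a library. A sum over cells cannot tell fewer cells that express a gene from less RNA per cell. In the cytokine comparison of β-cells, scaling to total UMIs in place of TMM (trimmed mean of M-values, the scaling used for all fold changes) shifted the median log2 change of all genes by -0.22 and moved the share of called genes that were higher from 51.5% to 33.4%.

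In the mouse genome build GRCm38, Dusp1 lies on chromosome 17 (26505590 to 26562128), Dusp4 on chromosome 8 (34807297 to 34819894), Dusp5 on chromosome 19 (53529109 to 53542431) and Dusp6 on chromosome 10 (99263231 to 99267489). Dusp8 lies on chromosome 7 (142079490 to 142095843), Dusp10 on chromosome 1 (184013302 to 184075636), Dusp16 on chromosome 6 (134715468 to 134792625) and Dusp26 on chromosome 8 (31089471 to 31097047). The 250 bases before the RefSeq start (GRCm38.p6) were matched for 6 of the 8 genes, all but Dusp4 and Dusp26. The consensus cAMP response element (CRE), TGACGTCA, was found in 1.55% of the 32851 windows of this length, and among the 6 genes it stood once in the Dusp1 window, 143 bases before the start, and at 2 places in the Dusp8 window, 107 and 63 bases before the start. The serum response CArG box was present in 1.47% of windows and at 2 places in the Dusp5 window, 82 and 72 bases before the start. No AP-1 site (TGANTCA, in 6.75% of windows), GAS element (TTCNNNGAA, in 7.02%) or NF-κB consensus (in 3.90%) was found in the 6 windows on either strand. The windows of Dusp8, which was called higher in β-cells with cytokines, of Dusp1, which shares its CRE, and of Dusp5 are given in gene orientation with the CRE or CArG matches in capitals.
Dusp8, chr7:142095285-142095534, minus strand: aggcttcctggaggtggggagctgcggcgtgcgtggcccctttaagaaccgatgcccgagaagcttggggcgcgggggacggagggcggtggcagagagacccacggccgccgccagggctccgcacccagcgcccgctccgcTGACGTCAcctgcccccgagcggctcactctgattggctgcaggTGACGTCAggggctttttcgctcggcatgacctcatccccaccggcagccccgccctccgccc
Dusp1, chr17:26508473-26508722, minus strand: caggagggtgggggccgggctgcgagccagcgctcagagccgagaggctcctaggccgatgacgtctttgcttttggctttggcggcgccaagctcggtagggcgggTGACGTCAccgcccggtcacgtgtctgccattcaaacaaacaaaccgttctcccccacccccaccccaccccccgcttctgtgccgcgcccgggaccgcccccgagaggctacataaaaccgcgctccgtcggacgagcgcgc
Dusp5, chr19:53528895-53529144, plus strand: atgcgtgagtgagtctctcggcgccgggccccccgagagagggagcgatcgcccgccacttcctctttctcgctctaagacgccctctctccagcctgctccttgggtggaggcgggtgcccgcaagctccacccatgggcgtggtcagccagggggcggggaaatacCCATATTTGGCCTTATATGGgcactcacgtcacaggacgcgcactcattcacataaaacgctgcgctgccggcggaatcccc
A match describes the letters of the window and does not show that a factor binds there.

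In untreated islets the 8 genes fell into groups by the class in which they were highest. The levels below are means of 2 libraries, and because the classes are clusters of the same cells their differences carry no test. Insulin made up 41.8% and 40.1% of the UMIs of untreated β-cells and 0.573% to 2.70% of those of α- and δ-cells. This lowers the CPM of all other genes in β-cells, and the levels are not corrected for it. Dusp1, an immediate early gene, and Dusp6, the ERK feedback phosphatase, were highest in endothelial cells and next in macrophages. Dusp1 stood at 273 ± 59.6 CPM (SD, n = 2) in endothelial cells, 115 ± 39.8 CPM in macrophages and 17.9 to 20.04 CPM in β-, α- and δ-cells, which did not differ from each other beyond their spread. Dusp6 stood at 157 ± 2.74 CPM in endothelial cells, 79.0 ± 0.47 CPM in macrophages and 18.1 ± 8.20 CPM in δ-cells, and at 0.970 ± 0.085 CPM it was nearly absent from β-cells. The JNK and p38 phosphatases and Dusp26 were instead highest in α- or δ-cells.

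Dusp8 was highest in δ-cells (65.1 ± 18.4 CPM) and α-cells (47.2 ± 10.7 CPM), whose ranges overlapped, followed by endothelial cells (23.0 ± 1.55 CPM), β-cells (17.7 ± 2.90 CPM) and macrophages (2.10 ± 1.002 CPM). Dusp10 was highest in α-cells (41.6 ± 5.19 CPM), with 27.4 ± 3.89 CPM in δ-cells and 16.9 ± 2.90 CPM in β-cells, and only 1 UMI was counted in untreated macrophages. Dusp16 was 32.1 ± 1.19 CPM in δ-cells, 27.6 ± 2.48 CPM in α-cells, 23.3 ± 10.3 CPM in endothelial cells, 8.39 ± 0.61 CPM in β-cells and 7.69 ± 1.04 CPM in macrophages, and the neuroendocrine Dusp26 was 28.04 ± 3.73 CPM in α-cells, 28.8 ± 7.81 CPM in δ-cells and 11.2 ± 1.47 CPM in β-cells. Untreated endothelial cells held no Dusp26 UMI among 1184312, which allows up to 2.53 CPM. Dusp4 was low in each class, from 2.50 ± 0.84 CPM in β-cells to 18.2 ± 3.09 CPM in endothelial cells. Dusp5 ranged from 9.82 ± 9.95 CPM in macrophages to 46.4 ± 0.38 CPM in endothelial cells. In all, 4 of the 8 genes were highest in an endocrine class and 4 in endothelial cells. The δ-cell sums were mixed. Their 5 δ-cell markers, all detected, summed to 56896 to 78406 CPM untreated, below the 97648 to 121080 CPM of the 2 pancreatic polypeptide cell markers. In 1 of the δ-cell sub-clusters, 33 of 98 cells held more Gcg than Sst UMIs. The part of this mixture in the δ-cell levels was not tested.

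**Figure D1:**
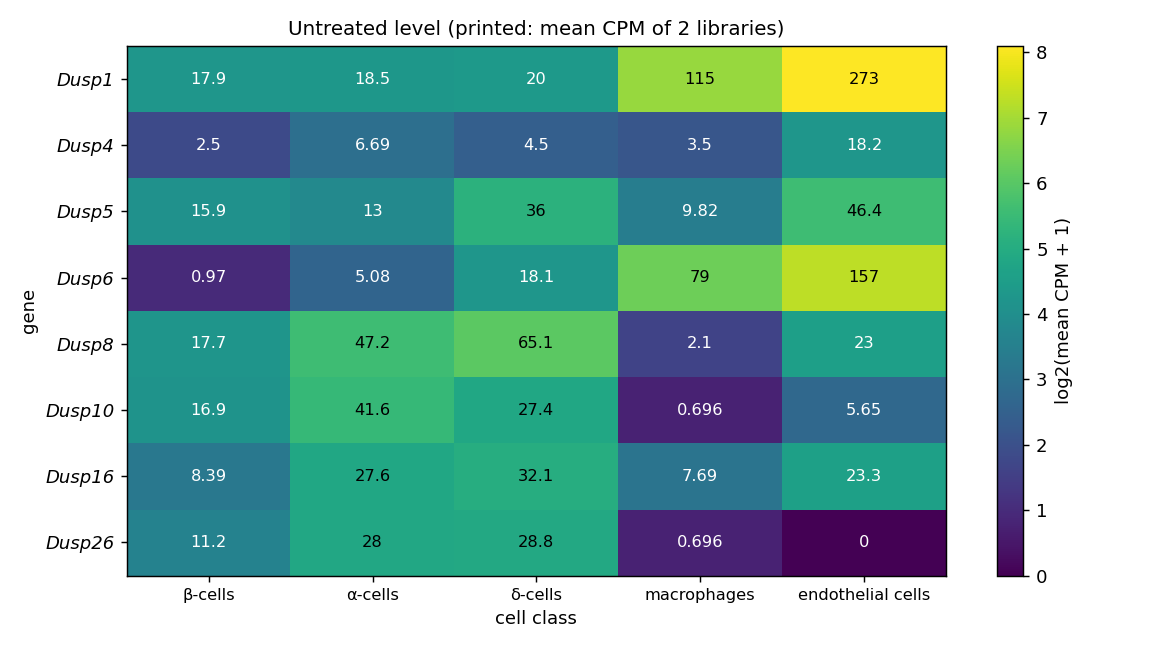
Mean level of each gene in untreated islets by cell class, printed as CPM (mean of 2 libraries) and coloured on a log2(CPM + 1) scale. Dusp1 and Dusp6 are brightest in endothelial cells (273 and 157 CPM), and Dusp8, Dusp10, Dusp16 and Dusp26 are brighter in α- and δ-cells than in β-cells. The CPM of β-cells are lowered by insulin, which made up 41.8% and 40.1% of their UMIs.

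In β-cells, cytokines raised the transcripts of 5 of the 8 phosphatases and lowered 1, and Dusp1 and Dusp6 did not pass the test. Dusp4 changed most, and the JNK and p38 phosphatases Dusp8, Dusp16 and Dusp10 and the ERK phosphatase Dusp5 rose beside it. The comparison asks how β-cells respond to cytokines, and all 8 genes passed the filter on low counts. Of the 12778 genes tested, 46.1% were called in either direction and 23.7% were called higher and 22.4% lower by edgeR's quasi-likelihood test (adjusted p below 0.05), against which the 6 of 8, the 5 and the 1 are to be read. The median log2 change of the 8 genes was 0.73 and that of all genes 0.00.

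Dusp4, the nuclear phosphatase of ERK and JNK, was counted at 1.90 and 3.09 CPM in the untreated replicates 1 and 2 and at 22.1 and 13.3 CPM in the cytokine replicates, from 115 and 867 UMIs in all. Replicate 1 had the larger difference. The log2 change was 3.10 (SE 0.36, edgeR adjusted p = 0.000328).

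Dusp8, which acts on JNK and p38, was counted at 15.6 and 19.7 CPM in untreated β-cells and at 43.8 and 51.8 CPM with cytokines. Replicate 2 was the higher library in both groups. The log2 change was 1.66 (SE 0.18, edgeR adjusted p = 0.000158).

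Dusp16, the JNK phosphatase, rose from 7.96 and 8.82 CPM to 15.0 and 15.4 CPM (log2 change 1.08, SE 0.19, edgeR adjusted p = 0.00200). Dusp5 rose from 13.99 and 17.9 CPM to 21.0 and 25.9 CPM (log2 change 0.78, SE 0.19, edgeR adjusted p = 0.00908). Dusp10 rose from 14.9 and 19.0 CPM to 22.8 and 23.4 CPM (log2 change 0.68, SE 0.17, edgeR adjusted p = 0.0112). The last 2 of these 3 genes lost their calls when the sums were scaled to total UMIs (adjusted p = 0.0575 and 0.0894 in edgeR).

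Dusp26 was the member that fell, from 12.2 and 10.1 CPM to 5.47 and 5.30 CPM (log2 change -0.84, SE 0.20, edgeR adjusted p = 0.00826). Dusp1 stood at 14.2 and 21.7 CPM untreated and at 23.6 and 23.3 CPM with cytokines, and its log2 change of 0.62 (SE 0.37) did not pass the test (edgeR adjusted p = 0.208). Dusp1 was called without the filter on low counts (adjusted p = 0.00395) and without either NMMA library (0.0430 and 0.0436). Dusp6 was counted from only 48 UMIs untreated and 15 with cytokines, and its log2 change was -1.19 (SE 0.65, edgeR adjusted p = 0.161, or 0.0281 in the fit with a replicate block). Without cytokine replicate 2 it was -2.535 and called (adjusted p = 0.0193). Without untreated replicate 1 the number of called members was 3 instead of 6, because Dusp5, Dusp10 and Dusp26 lost their calls, at log2 changes of 0.64 (adjusted p = 0.0789), 0.54 (adjusted p = 0.0922) and -0.65 (adjusted p = 0.0772).

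**Figure D2:**
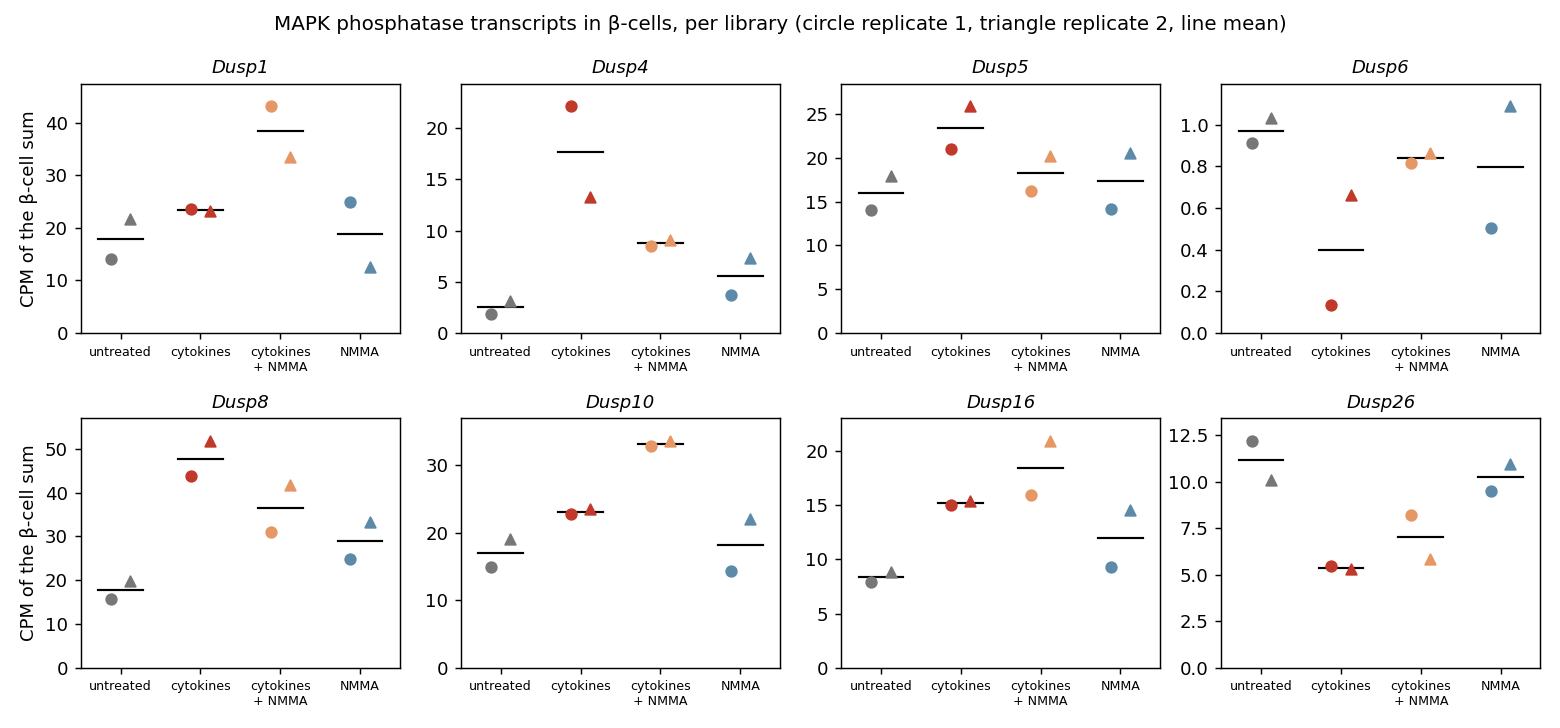
Level of each of the 8 genes in β-cells (CPM of the β-cell sum) in each library, by condition, with a line at the mean of the 2 replicates. Dusp4 and Dusp8 are highest with cytokines (13.3 to 22.1 and 43.8 to 51.8 CPM), Dusp10 with cytokines and NMMA (32.8 and 33.5 CPM), and Dusp26 is lowest with cytokines (5.30 and 5.47 CPM).

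The comparison of cytokines with cytokines and NMMA asks which part of these changes depends on nitric oxide. In β-cells 2 of the 8 members, Dusp4 and Dusp8, were called, both higher when nitric oxide could be made, among 19.2% of the 12778 genes called in either direction and 8.92% called higher. Dusp4 stood at 22.1 and 13.3 CPM with cytokines and at 8.503 and 9.08 CPM when NMMA was present (log2 change 1.23, SE 0.33, edgeR adjusted p = 0.0356). A replicate block moved its adjusted p to 0.0693 in edgeR. Dusp8 stood at 43.8 and 51.8 CPM against 31.0 and 41.8 CPM (log2 change 0.61, SE 0.18, edgeR adjusted p = 0.0427). Scaled to total UMIs, neither gene was called (edgeR adjusted p = 0.0833 for Dusp4 and 0.188 for Dusp8), and leaving out a library gave between 0 and 2 called members. It was 0 without cytokine replicate 1 (adjusted p = 0.195 for Dusp4 and 0.0825 for Dusp8) or without replicate 1 of cytokines with NMMA (0.161 and 0.213), Dusp4 lost its call without replicate 2 of cytokines with NMMA (0.145), and Dusp8 without cytokine replicate 2 (0.145) and without either NMMA library (0.0517 and 0.0530).

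Dusp5 was 21.0 and 25.9 CPM with cytokines and 16.2 and 20.2 CPM with NMMA added, and its log2 change of 0.58 (SE 0.19) missed the threshold without the block (edgeR adjusted p = 0.0631) and passed it once replicates were blocked (0.000371). Dusp10 went in the other direction, with 22.8 and 23.4 CPM against 32.8 and 33.5 CPM (log2 change -0.31, SE 0.17, edgeR adjusted p = 0.232, and 0.0430 with the block). Dusp16 (log2 change -0.06, SE 0.19, edgeR adjusted p = 0.874), Dusp26 (-0.19, SE 0.20, 0.552), Dusp1 (-0.50, SE 0.36, 0.372) and Dusp6 (-1.004, SE 0.68, 0.328) were not called. Without the filter on low counts Dusp1 and Dusp5 were called (edgeR adjusted p = 0.0258 and 0.0164). Genes called higher with cytokines both than untreated and than with cytokines and NMMA made up 7.50% of the 12778 genes and 2 of the 8 members, again Dusp4 and Dusp8.

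The comparison of cytokines with NMMA against untreated islets gives the response that remains when nitric oxide synthase is inhibited. Here 5 of the 8 members were called in β-cells, 4 higher and 1 lower, where 22.6% of all genes were called, 12.9% higher and 9.74% lower. Dusp4 was 8.503 and 9.08 CPM against 1.90 and 3.09 CPM (log2 change 1.87, SE 0.36, edgeR adjusted p = 0.00742). The call was lost without untreated replicate 1, at a log2 change of 1.54. Dusp8 (log2 change 1.06, SE 0.18, edgeR adjusted p = 0.00308), Dusp16 (1.14, SE 0.20, 0.00304) and Dusp10 (0.99, SE 0.17, 0.00349) were higher too. Dusp26 was lower, at 8.23 and 5.88 CPM (log2 change -0.65, SE 0.20, edgeR adjusted p = 0.0460 and DESeq2 adjusted p = 0.0958), and it was called in 2 of the 8 fits that left out a library, those without untreated replicate 2 and without replicate 1 of cytokines with NMMA, at log2 changes between -0.94 and -0.42 over the 8. Dusp1 reached its highest β-cell level in this condition, 43.1 and 33.5 CPM, with a log2 change of 1.12 (SE 0.37) that edgeR did not call (adjusted p = 0.0720) and DESeq2 did (adjusted p = 0.00173), as did edgeR without the filter (1.22e-08) and without either NMMA library (0.00782 and 0.00811).

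NMMA alone gave no call in β-cells among the 8 members or among the 12778 genes tested in edgeR, of which 932 had an unadjusted p below 0.05. With the replicate block, which compares libraries of the same islet pool, 457 genes were called, and DESeq2 called 14. The libraries of Dusp8, Dusp4 and Dusp16 did not overlap between the groups. The share of all genes without overlap was not computed, so nothing is read from this. Dusp8 was 24.8 and 33.3 CPM with NMMA against 15.6 and 19.7 CPM untreated (log2 change 0.72, SE 0.18, edgeR adjusted p = 0.466), and it was called under the replicate block (adjusted p = 0.00243) and without the filter (0.00822). Dusp4 was 3.73 and 7.34 CPM against 1.90 and 3.09 CPM (log2 change 1.17, SE 0.37, edgeR adjusted p = 0.538, and 0.000610 without the filter), and Dusp16 was 9.33 and 14.5 CPM against 7.96 and 8.82 CPM (0.50, SE 0.20, 0.632).

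**Figure D3:**
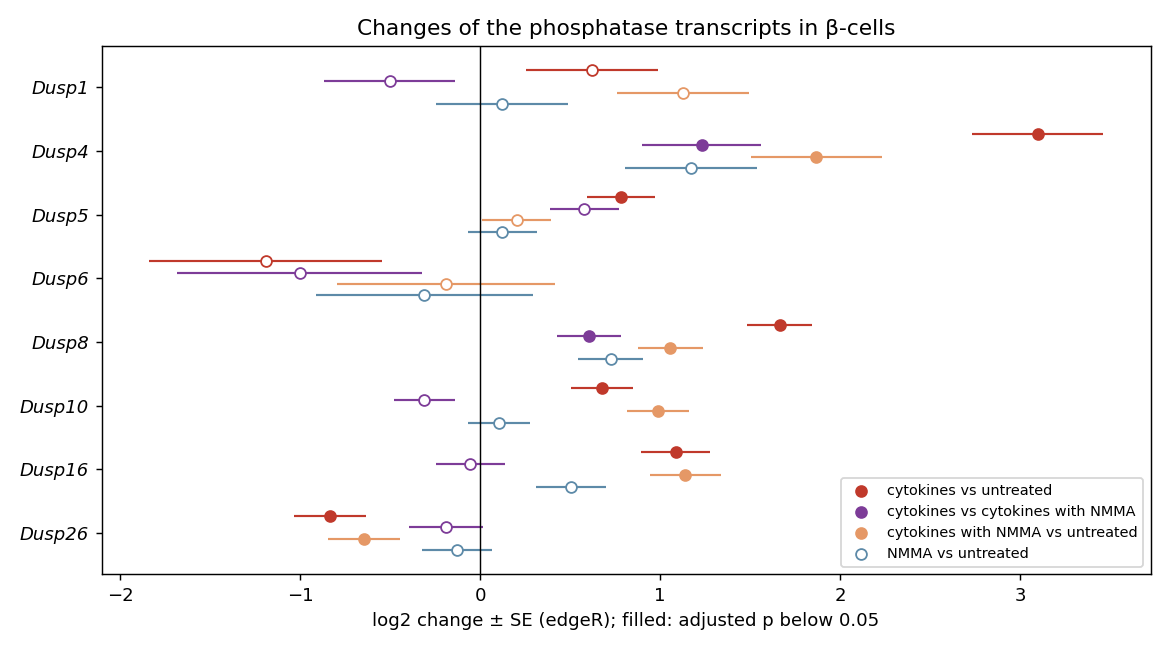
Log2 change of each gene in β-cells in the 4 comparisons, with its SE from edgeR. Filled points passed the threshold of 0.05 after adjustment over all genes. The filled points are Dusp4, Dusp5, Dusp8, Dusp10, Dusp16 and Dusp26 for cytokines against untreated, with Dusp4 farthest to the right at 3.10, and Dusp4 and Dusp8 for cytokines against cytokines with NMMA. For cytokines with NMMA against untreated, Dusp4, Dusp8, Dusp10, Dusp16 and Dusp26 are filled, and no point is filled for NMMA alone.

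The share of β-cells with a UMI followed the levels. Cells were thinned to 9500 UMIs so that depth did not set the share, and intervals are exact 95% binomial intervals that cover counting error only. A Dusp4 UMI was found in 1.69% (1.12 to 2.45) of 1596 and 3.50% (2.08 to 5.47) of 515 untreated β-cells, and in 15.3% (13.2 to 17.5) of 1108 and 11.5% (8.75 to 14.7) of 480 β-cells with cytokines. With cytokines and NMMA the shares were 7.03% (5.15 to 9.32) and 7.95% (5.39 to 11.2), between those of the untreated and the cytokine libraries. Before thinning the cytokine shares were 33.0% and 25.7%. A Dusp8 UMI was found in 13.0% and 15.7% of untreated β-cells and in 31.9% and 35.6% of those with cytokines. Unthinned, Dusp8 was in 24.5% to 60.1% of β-cells and in 0 to 3.03% of macrophages, and Dusp4 in 3.31% to 33.0% of β-cells and 0 to 12.1% of macrophages, at median depths of 20421 to 29822 UMIs in β-cells and 8026 to 15153.5 in macrophages.

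Treated β-cells were also divided by whether a Nos2 UMI was seen, since Nos2 marks cells in which the cytokine response has led to the inducible synthase. The sums were made from cells thinned to 9500 UMIs, within the 2 cytokine libraries and the 2 libraries of cytokines with NMMA. In cytokine replicate 1, 515 thinned cells had a Nos2 UMI and 593 had none, against 678 and 457 unthinned. The cells without a Nos2 UMI therefore include cells that expressed Nos2. Dusp8 was lower in cells with a Nos2 UMI, at 40.3 against 50.2 CPM and 55.0 against 55.1 CPM in the cytokine replicates 1 and 2, and at 29.1 against 52.6 CPM and 43.3 against 57.2 CPM with NMMA. It was lower in 4 of 4 libraries, though in cytokine replicate 2 by only a small margin, with a log2 difference of -0.41 (SE 0.12, edgeR adjusted p = 0.0362). It was the only call among the 7 members that passed the filter, where 6.88% of 9687 genes were called. The call was lost when sums were scaled to total UMIs (edgeR adjusted p = 0.0774) and without either library of cytokines with NMMA, at log2 differences between -0.56 and -0.25 over the 4 fits that left out a library.

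Dusp5 (log2 difference -0.43, SE 0.16, edgeR adjusted p = 0.0992) and Dusp4 (-0.38, SE 0.18, 0.263) had values on the same side without a call. Dusp4 was 13.5 against 24.7 CPM in cytokine replicate 1 but 19.2 against 14.8 CPM in replicate 2. Dusp5 was called when cells were not thinned (edgeR adjusted p = 0.00465) and without cytokine replicate 1 (0.0123), and Dusp4 when doublets were removed (0.0338). Each thinned setting rests on a single random draw, and removing doublets also drew the thinning and the Nos2 split anew. In cytokine replicate 2, each draw had 277 cells with no Nos2 UMI, not necessarily the same ones. In them Dusp8 was at 55.1 CPM in the main draw and 60.4 CPM with doublets removed. The effect of doublets was therefore not separated from that of the draw. Dusp1, Dusp10, Dusp16 and Dusp26 had log2 differences between -0.19 and 0.13.

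In α-cells, the glucagon cells of the islet, the pattern by which the genes were chosen was seen, and it is given here only as values. Dusp4 was counted at 5.56 and 7.82 CPM in untreated α-cells, at 123 and 44.9 CPM with cytokines, at 12.3 and 8.28 CPM with cytokines and NMMA and at 15.9 and 8.99 CPM with NMMA. The 2 cytokine libraries were above all others but differed from each other by more than the other 6 libraries did. After thinning, 47.6% of 42 and 30.2% of 53 α-cells with cytokines held a Dusp4 UMI, against 2.67% of 75 and 8.75% of 80 untreated. Over both replicates there were 165 Dusp4 UMIs with cytokines and 20 untreated. These values chose the genes and support nothing further.

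Most α-cells with cytokines, 101 of 115, fell in a sub-cluster of 123 cells in which Dusp4 itself was among the 10 leading genes beside the heat shock genes Hspb1 and Hspa1a. The sub-cluster was named from its α-cell marker score, the highest among the endocrine types scored. At -0.0465 that score was just below the mean of the sub-clusters, and no α-cell marker was among the 10 leading genes. In 115 of the 123 cells Gcg UMIs outnumbered Sst UMIs, a count that did not enter the naming. Insulin UMIs were 4.75% and 4.71% of the α-cell sums with cytokines, 1.05% and 0.573% untreated and 1.56% and 5.17% with cytokines and NMMA. All 8 β-cell markers were detected there, at a summed 54458 to 55164 CPM with cytokines against 397490 to 406350 CPM in β-cells. Sub-clusters led by insulin were left out of the α-cell sums, and they held no cell of the cytokine libraries. The part of this in the insulin shares and the levels was not tested. The Dusp4 level of β-cells with cytokines, 22.1 and 13.3 CPM, was below that of α-cells.

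Dusp8 in α-cells was 54.8 and 39.7 CPM untreated, 120 and 84.6 CPM with cytokines, 53.7 and 39.3 CPM with cytokines and NMMA and 63.5 and 46.4 CPM with NMMA. The cytokine libraries were again above the other 6, and the libraries with cytokines and NMMA overlapped with the untreated ones. Dusp26 was 25.4 and 30.7 CPM untreated, 5.84 and 6.74 CPM with cytokines and 16.4 and 9.83 CPM with cytokines and NMMA. Dusp1 was 21.4 and 15.6 CPM untreated, 51.4 and 39.7 CPM with cytokines and 46.2 and 28.5 CPM with cytokines and NMMA. Dusp10 was 37.9 to 45.7 CPM in the 4 libraries without cytokines and 52.6 to 68.9 CPM in the 4 with them.

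In δ-cells the values rest on few UMIs and mixed cells. With cytokines, the 6 α-cell markers (5 detected) summed to 39142 CPM in the δ-cell library and the 5 δ-cell markers, all detected, to 29113 CPM. Dusp4 was 6.25 and 2.74 CPM untreated, 10.4 CPM in the single usable cytokine library, where it came from 2 UMIs, and 3.30 and 2.63 CPM with cytokines and NMMA. Dusp8 was 78.1 and 52.1 CPM untreated, 104 CPM with cytokines (20 UMIs), 44.0 and 44.7 CPM with cytokines and NMMA and 43.4 and 84.9 CPM with NMMA. Dusp26, which was lower with cytokines in β- and α-cells, was at 57.1 CPM in that library, from 11 UMIs, against 34.4 and 23.3 CPM untreated.

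Over all non-β endocrine cells together, the log2 change of Dusp4 was 4.04 (SE 0.55) from untreated to cytokines and 3.54 (SE 0.53) from cytokines with NMMA to cytokines. These are the contrasts that chose the genes. The other members ranged from -2.56 for Dusp6 to 1.55 for Dusp1 in the first and from -2.25 for Dusp6 to 1.44 for Dusp8 in the second. In them 21.7% and 10.7% of the 11007 genes tested were called, a background from which nothing is read here.

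The comparison of cytokines with NMMA against untreated was not itself used in the choice, but both of its groups enter the contrasts that were. In it 3 of the 8 members were called, where 10.6% of genes were. Dusp1 was 40.4 and 29.1 CPM against 21.0 and 15.6 CPM (log2 change 0.95, SE 0.25, edgeR adjusted p = 0.0183), and Dusp10 was 48.4 and 65.3 CPM against 35.9 and 32.4 CPM (0.77, SE 0.21, 0.0231). Dusp26 was 15.2 and 11.4 CPM against 31.7 and 27.9 CPM (log2 change -1.13, SE 0.25, edgeR adjusted p = 0.00608). DESeq2 called none of the 3 (adjusted p = 0.110, 0.136 and 0.0702). Leaving out 1 library gave between 1 and 3 called members, with Dusp1 lost without untreated replicate 2 or replicate 1 of cytokines with NMMA, Dusp10 without either untreated library or replicate 2 of cytokines with NMMA, and Dusp26 without untreated replicate 1 or replicate 2 of cytokines with NMMA. Dusp4 was at 9.14 and 6.64 CPM against 4.96 and 6.33 CPM (log2 change 0.50, SE 0.64), a description only, since its values in both groups entered the choice. Dusp8 was not called (log2 change -0.12, SE 0.22, edgeR adjusted p = 0.833). The makeup of the class moved with this comparison. The sub-cluster led by Ppy and Pyy held 36 and 30 untreated cells and 2 and 3 cells with cytokines and NMMA, and both pancreatic polypeptide cell markers were detected, summing to 112750 to 127890 CPM untreated and 45382 to 80933 CPM with cytokines and NMMA. The 8 β-cell markers, all detected, summed to 18326 to 20915 CPM untreated and 36491 to 56707 CPM with cytokines and NMMA, and the 6 ductal markers, all detected, to 1743 to 1992 CPM and 4212 to 6848 CPM. Sub-clusters led by insulin, left out of the class, held mostly cells of the libraries without cytokines. The part of all these in the calls was not tested. NMMA alone gave no call among the members or among all 11007 genes in edgeR, of which 297 had an unadjusted p below 0.05.

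**Figure D4:**
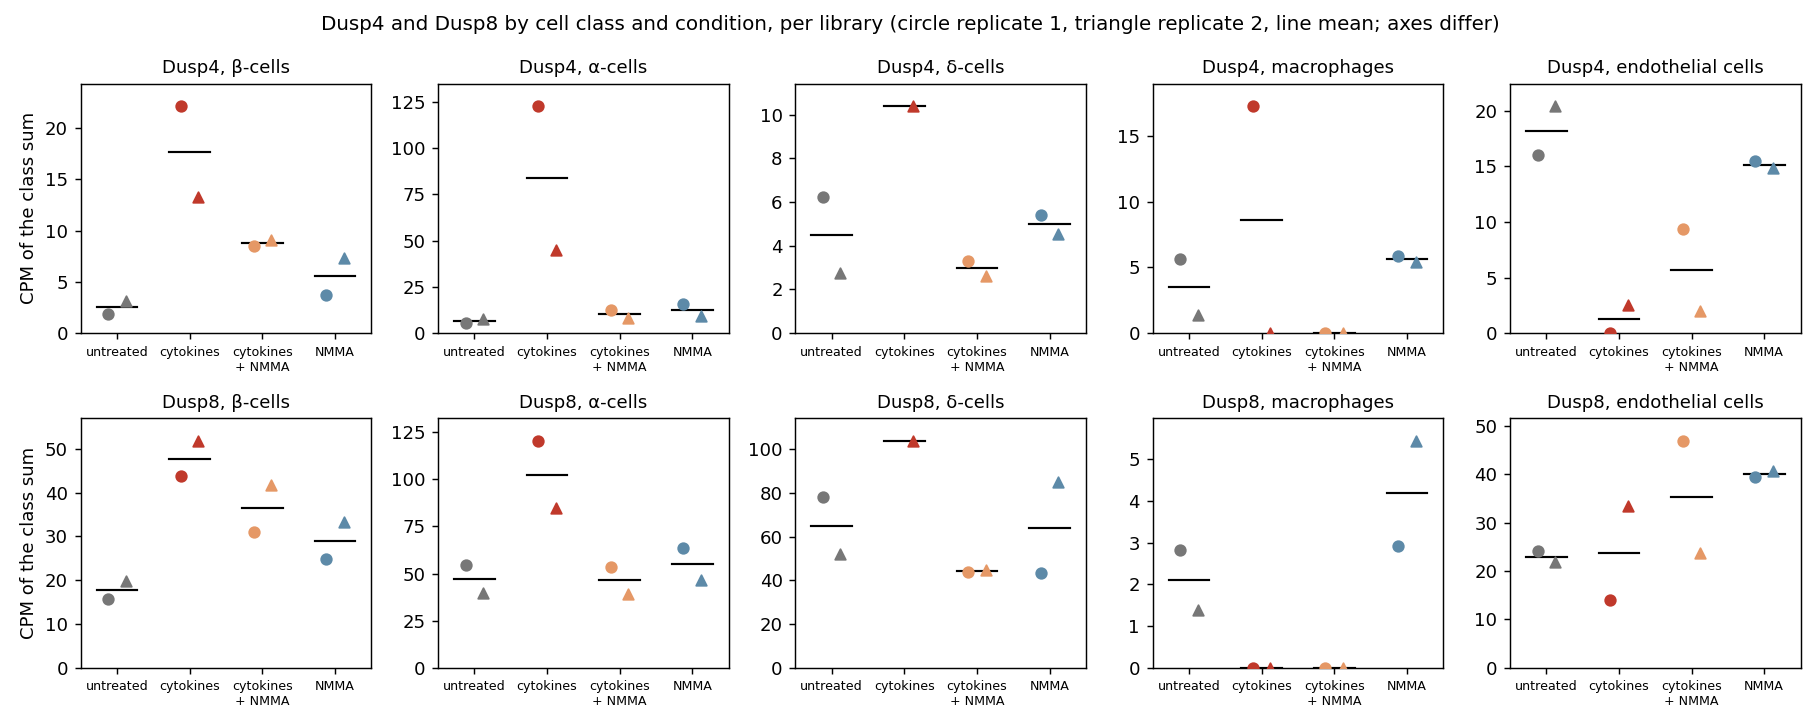
Level of Dusp4 (top) and Dusp8 (bottom) in 5 cell classes in each library, in CPM of the class sum, with a line at the mean. Axes differ between panels. Cytokine libraries stand highest in β- and α-cells for both genes (Dusp4 at 123 and 44.9 CPM in α-cells), whereas Dusp4 in endothelial cells is lowest with cytokines (0 and 2.57 CPM).

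In endothelial cells, Dusp6 rose with cytokines and Dusp1 fell, while Dusp8, Dusp16 and Dusp5, which rose in β-cells, were not called and Dusp10 did not pass the filter on low counts. On simulated data this comparison recovered only 4.66% of 2-fold changes. The missing calls therefore do not show that these genes were unchanged. Of the 8 members 5 passed the filter and 2 were called, where 6.38% of the 7503 genes tested were. Dusp6 was counted at 158 and 155 CPM untreated and at 494 and 395 CPM with cytokines, from 185 and 260 UMIs. The groups were far apart compared with their spread, and the log2 change was 1.68 (SE 0.23, edgeR adjusted p = 0.000107). It was called in each of the 8 fits that left out a library, with log2 changes between 1.57 and 1.81.

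With NMMA added to the cytokines Dusp6 was 220 and 252 CPM, above untreated (log2 change 0.83, SE 0.23, edgeR adjusted p = 0.0407 and DESeq2 adjusted p = 0.155), where 6.61% of genes were called. It was called without either cytokine library and lost its call without each of the other 6, at log2 changes between 0.68 and 0.98. Between cytokines and cytokines with NMMA its log2 change was 0.85 (SE 0.23), both cytokine libraries were higher, and the test did not pass (edgeR adjusted p = 0.596). No gene was called there in edgeR, and 365 of 7503 genes had an unadjusted p below 0.05. NMMA alone left Dusp6 at 167 and 159 CPM (log2 change 0.04, SE 0.23).

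Dusp1 was 231 and 315 CPM in untreated endothelial cells and 140 and 118 CPM with cytokines (log2 change -0.91, SE 0.26, edgeR adjusted p = 0.0478 and DESeq2 adjusted p = 0.230). Its call is at the threshold and was lost without either cytokine library, without either NMMA library and without untreated replicate 2, with log2 changes between -1.12 and -0.64 over the 8 fits that left out a library. With cytokines and NMMA it was 131 and 172 CPM (log2 change -0.60, SE 0.26, edgeR adjusted p = 0.236). Dusp4 did not pass the filter on low counts. Its UMIs numbered 8 and 14 in untreated endothelial cells, 0 and 1 with cytokines, 2 and 1 with cytokines and NMMA and 9 and 8 with NMMA. The ratio of untreated to cytokines over summed UMIs was 11.2 (95% exact counting interval 1.81 to 463). Mesenchymal markers summed to 271 to 746 CPM in untreated endothelial cells and to 164 to 177 CPM with cytokines, and endothelial markers to 9346 to 11074 and 5408 to 8239 CPM. Schwann markers summed to 150 to 175 CPM untreated and 4.66 to 33.4 CPM with cytokines (3 and 2 of 5 detected), and ductal markers to 70.0 to 734 and 10.3 to 23.3 CPM (6 and 3 of 6 detected). With cytokines and NMMA, where Dusp6 was called, all 8 macrophage markers were detected and summed to 15.9 CPM in 1 library and 1252 CPM in the other, against 20038 to 23523 CPM in macrophages themselves. Their part in these results was not tested.

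Macrophages gave no call among the 2 members that passed the filter, where 4.62% of the 5156 genes tested were called with cytokines, 6.46% with cytokines and NMMA against untreated and 0.116% for cytokines against cytokines with NMMA. Simulated 2-fold changes with cytokines were recovered in only 6.32% of genes in this class, so a missing call does not show that a member was unchanged. Dusp6 was 78.6 and 79.3 CPM untreated, 32.4 and 54.9 CPM with cytokines, 59.9 and 72.8 CPM with cytokines and NMMA and 87.7 and 92.3 CPM with NMMA. The cytokine libraries were the lowest, but the log2 change of -0.77 (SE 0.33) did not pass the test (edgeR adjusted p = 0.274). Dusp1 ranged from 65.2 to 191 CPM over the 8 libraries with overlapping groups (log2 change 0.39, SE 0.49, edgeR adjusted p = 0.798). Dusp4 came from 15 UMIs over all libraries, of which 8 were in cytokine replicate 1. β-cell markers summed to 18540 to 43545 CPM in untreated macrophages and to 2280 to 6747 CPM with cytokines, and their part in these values was not tested.

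**Figure D5:**
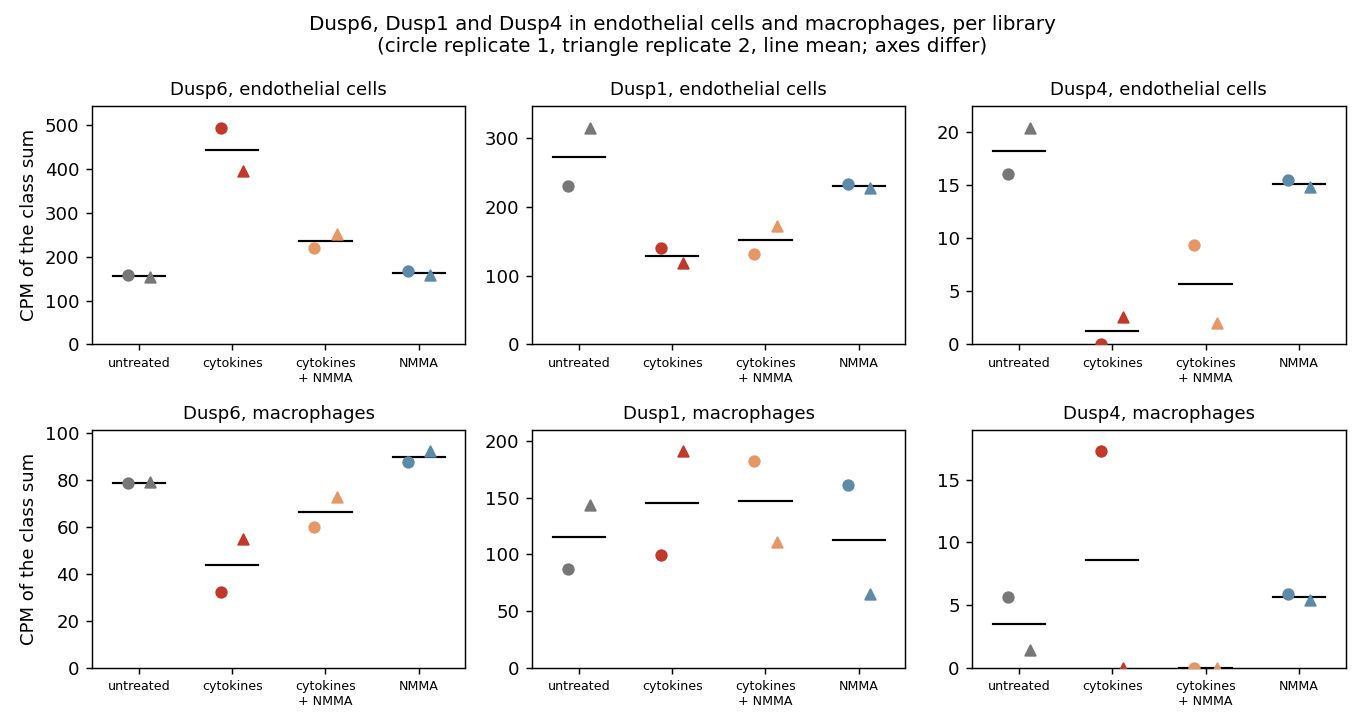
Level of Dusp6, Dusp1 and Dusp4 in endothelial cells (top) and macrophages (bottom) in each library, in CPM of the class sum, with a line at the mean. Axes differ between panels. Endothelial Dusp6 is highest with cytokines (494 and 395 CPM), whereas macrophage Dusp6 is lowest there (32.4 and 54.9 CPM).

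Whether β-cells and endothelial cells respond differently was tested as the interaction of class and condition, with the library as a block. For cytokines against untreated, 3 of the 8 members were called, where 6.32% of 13263 genes were. The log2 difference, β-cells minus endothelial cells, was 1.40 for Dusp1 (SE 0.29, edgeR adjusted p = 0.000118), 6.07 for Dusp4 (SE 0.98, 8.49e-08) and -3.07 for Dusp6 (SE 0.47, 1.20e-08). The value for Dusp4 is a fitted one that rests on 1 endothelial UMI with cytokines and is no bound. It was called in all 8 fits that left out a library, with values between 5.09 and 12.8. For cytokines against cytokines with NMMA, Dusp6 was called (log2 difference -2.004, SE 0.53, edgeR adjusted p = 0.0168), where 1.53% of genes were, and this call was lost without cytokine replicate 1 and without either library of cytokines with NMMA (log2 differences between -3.37 and -0.93 over the 8 fits). Between β-cells and macrophages no member was called in either contrast, where 4.38% and 0.843% of 12812 genes were. The smallest edgeR adjusted p was 0.371, for Dusp8, whose log2 difference of 8.22 had an SE of 4.16 and rests on 5 macrophage UMIs over all libraries. The missing calls do not show that the classes responded alike.

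Around the phosphatases, other genes of the MAP kinase pathways were followed as 6 lists. Among the MAPK-responsive immediate early genes, 14 of 18 were tested in β-cells, and with cytokines 5 were called higher and 4 lower, where 23.7% of all genes were higher and 22.4% lower. Atf3, a stress-induced transcription factor, rose (log2 change 3.75, SE 0.46, edgeR adjusted p = 0.000720), while Egr1 (-2.92, SE 0.38, 0.00110) and Fos (-2.82, SE 0.26, 8.94e-05) fell. Against cytokines with NMMA, 1 was higher and 8 were lower, where 8.92% and 10.3% of all genes were, among them Fos (log2 change -2.96, SE 0.26, edgeR adjusted p = 0.00135). With cytokines and NMMA against untreated, 8 were higher and none lower, where 12.9% and 9.74% of all genes were, led by Atf3 (3.15), Ier3 (2.74) and Fosl2 (2.39). The list's median log2 change was 0.26 in the first comparison, -0.82 in the second and 0.70 in the last, where the medians of all genes were near 0. With total UMI scaling the last 2 pairs of counts were 1 and 9, and 8 and 0.

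Of the Sprouty, Spred and Errfi1 feedback inhibitors, which restrain receptor tyrosine kinase signalling to ERK, 6 of 8 were tested in β-cells, with 2 higher and none lower with cytokines (23.7% and 22.4% of all genes, median log2 change 0.08, and -0.14 with total UMI scaling) and none higher and 2 lower against cytokines with NMMA (8.92% and 10.3% of all genes, median -0.26). Errfi1 (log2 change 1.68, SE 0.20, edgeR adjusted p = 0.000205) and Spry2 (1.66, SE 0.37, 0.00771) rose with cytokines, and Spry4 (-2.86, SE 0.58, 0.0118) and Spred2 (-0.91, SE 0.27, 0.0440) were lower than with cytokines and NMMA. Of the MAP kinases, 12 of 13 were tested, and 5 were higher and 2 lower with cytokines (median log2 change 0.43), beside 23.7% and 22.4% of all genes. Mapk4 (log2 change 2.36, SE 0.67, edgeR adjusted p = 0.0195) and the p38 kinase gene Mapk11 (2.25, SE 0.45, 0.00373) rose and Mapk15 fell (-2.13, SE 0.21, 9.29e-05). Mapk14, which encodes p38α, was the 1 member of this list called higher with cytokines than with NMMA added (log2 change 0.56, SE 0.12, edgeR adjusted p = 0.0160). With total UMI scaling the list had 0 higher and 1 lower there.

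Of the MAP2K and MAP3K kinases, 23 of 25 were tested in β-cells, with 5 higher and 6 lower (median log2 change -0.04), a share near the 46.1% of all genes called. Map3k8 (log2 change 2.22, SE 0.45, edgeR adjusted p = 0.00431) and Map3k9 (1.79, SE 0.38, 0.00501) rose and Map3k5, which encodes the JNK and p38 activator ASK1, fell (-1.17, SE 0.20, 0.00168). Of the 14 other atypical dual specificity phosphatases 11 were tested, with 2 higher and 3 lower, again near that share (median 0.03, and -0.19 with total UMI scaling), including Dusp23 (-1.75, SE 0.21, 0.000251), Dusp18 (-1.50, SE 0.19, 0.000308) and Dusp22 (1.08, SE 0.19, 0.00177). Of the 3 other phosphatases with a docking domain only Dusp7 was tested, and it fell (-0.99, SE 0.23, 0.00759). In endothelial cells, where 6.38% of genes were called, 3 of 14 immediate early genes were higher with cytokines and none lower (Atf3, Zfp36 and Phlda1), Map2k1 rose (log2 change 1.42, SE 0.30, edgeR adjusted p = 0.00694), Map3k11 fell (-1.27, SE 0.36, 0.0413) and Errfi1 rose (1.64), the last without a call when scaled to total UMIs. In non-β endocrine cells 5 of 13 immediate early genes were higher and none lower with cytokines and NMMA than untreated, where 10.6% of genes were called. The macrophage lists had no call in any comparison.

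Across 39 sums of 5 classes and 8 libraries, correlations of log2(CPM + 1) are given as a description over points that share libraries and classes. Dusp1 and Dusp6 varied together (Pearson r = 0.785), as did Dusp10 and Dusp26 (r = 0.834) and Dusp8 and Dusp16 (r = 0.713), and Dusp1 and Dusp26 varied in opposite ways (r = -0.847). Dusp4 was most like Dusp8 among the members (r = 0.564). Of 8732 genes at 10 CPM or more on average, those most like Dusp4 were Larp4 (r = 0.775), Rpl17 (0.738) and Grpel2 (0.728). The most like Dusp8 were Cltb (r = 0.951), Sdc2 (0.941) and Rpl22l1 (0.936), the most like Dusp1 were Map2k3 (0.943), Ralb (0.940) and Msn (0.929), and the most like Dusp6 were Smagp (0.939), Usp25 (0.936) and Zfp36l1 (0.934).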

How the data were processed

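Droplet single-cell RNA-sequencing (10x Genomics 3' chemistry, v3 in the study's methods and v2 in the sample labels) was made from 8 libraries of mouse islets, 2 replicates of 4 conditions. The deposited files hold raw UMI counts per gene and barcode, which the authors made with CellRanger 3.0.0 (replicate 1) and 6.0.0 (replicate 2) on mm10 per the labels, so replicate and software version cannot be told apart. Barcodes with at least 200 genes, at most 5500 (replicate 1) or 6500 (replicate 2) genes and at most 10% mitochondrial UMIs were kept, after the study's methods. Of these, 14 barcode sequences occurred in more than 1 library. Cells were clustered with scanpy 1.11.5 (2000 variable genes, 30 components, 20 neighbours, resolution 1) into 23 clusters, the non-β endocrine cells again into 11, and named from fixed markers. Of the 11, sub-clusters of 168 and 87 cells were led by insulin and left out of every class. The first held 52 untreated and 113 NMMA cells of replicate 2, the second 71 and 12 of replicate 1. Neither held a cell of the cytokine libraries, and each held 1 of cytokines with NMMA. The 99 barcodes called doublets (0.910%) were kept. Raw counts were summed per library and class (at least 10 cells) and tested with edgeR 4.0.16 in R 4.3.3 (filterByExpr, TMM, robust quasi-likelihood F test, Benjamini-Hochberg adjustment over all genes tested, threshold 0.05). The 4 conditions shared 1 estimate of the spread, and the fits had no replicate block. The difference between classes and the Nos2 split had the library as a block. The fitting was tested on simulated data with 2-fold changes. In the fits within a class the simulated spread was estimated from the data, and recovery was low. For cytokines against untreated it was 4.66% for endothelial cells, 6.32% for macrophages, 15.3% for the non-β endocrine class and 28.1% for β-cells. For the difference of β-cells from macrophages and from endothelial cells it was 0.5% and 0.503%. A missing call is therefore weak evidence that a gene did not change. Alternatives were RLE and total UMI scaling, DESeq2 1.42.0, no filter, a replicate block, removal of doublets, leaving out each library, and no thinning. The ranges of the shares and α-cell levels over replicates were added after the data were seen.

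The members and lists were chosen with earlier results of these data known. The 8 members were always named, with at most 3 called genes per pathway list and comparison, those of largest change, and the 3 genes most like Dusp1, Dusp4, Dusp6 and Dusp8 by Pearson r over the class sums.

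Replicate numbers mark a shared pool of islets. Same-numbered libraries deviated together from their condition means in each pair, with correlations of 0.604 to 0.702 in β-cells, 0.300 to 0.501 in non-β endocrine cells, 0.336 to 0.460 in macrophages and 0.227 to 0.389 in endothelial cells. The main fits within a class ignored this pairing, and their p-values measure the spread between the 2 libraries of a condition, which includes the spread between pools. The p-values of the class differences and of the Nos2 split, with the library as a block, measure the spread of differences within libraries. Intervals and floors cover counting error only.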

Additional observations from a re-analysis of the deposited data

Results flagged for a closer look

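The response to cytokines differed between β-cells and endothelial cells for 3 members by the test of class and condition together. For Dusp1 the log2 difference, β-cells minus endothelial cells, was 1.40, for Dusp4 6.07 and for Dusp6 -3.07. Dusp6 rose in endothelial cells and was at 4 to 32 UMIs per library in β-cells of the untreated and cytokine libraries, and the difference for Dusp4 rests on 1 endothelial UMI with cytokines. For cytokines against cytokines with NMMA, Dusp6 differed by -2.004. No member was singled out for a library standing apart, since each condition had 2 libraries, too few for that comparison.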

How the results depend on the processing

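Apart from leaving out a library, 669 alternative values of single members were computed, of which 616 kept direction and side of the threshold or, in the contrasts that chose the genes and carry no test, stayed within 1 SE. Dusp4, Dusp8 and Dusp16 in β-cells with cytokines against untreated, and Dusp6 in endothelial cells in that comparison, were called under every alternative. In β-cells with cytokines against cytokines with NMMA the number of called members, 2, was 0 with total UMI scaling and 4 without the filter, and the number of members higher in both comparisons was 0 with total UMI scaling. NMMA alone gave 2 called members in β-cells without the filter and 1 with the replicate block. With DESeq2, non-β endocrine cells with cytokines and NMMA against untreated had 0. In endothelial cells 1 member instead of 2 was called with cytokines under RLE scaling and under DESeq2, and 0 instead of 1 with cytokines and NMMA under total UMI scaling, DESeq2 and no filter. The Nos2 split had 0 called members with total UMI scaling, 2 with cells not thinned and 2 with doublets removed, where the thinning was also drawn anew. The mean share of β-cells with a Dusp4 UMI with cytokines was 29.4% when cells were not thinned. The cause of these changes was not tested.

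Direction turned in 14 of those 669 values, each of a member without a call. Of the values given above, in the Nos2 split Dusp10 was -0.12 with cells not thinned and -0.23 with doublets removed, and Dusp26 was 0.0601 with doublets removed. Leaving out 1 library, Dusp16 and Dusp26 in β-cells for cytokines against cytokines with NMMA ran from -0.22 to 0.13 and from -0.41 to 0.11, Dusp8 in non-β endocrine cells with cytokines and NMMA from -0.33 to 0.13, Dusp1 in macrophages with cytokines from -0.19 to 0.87, and Dusp10 and Dusp16 in the Nos2 split from -0.0121 to 0.28 and from -0.12 to 0.18, none of them called.

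Leaving out 1 library gave 3 to 7 called members in β-cells with cytokines, 0 to 2 against cytokines with NMMA, 3 to 5 with cytokines and NMMA and 0 to 2 with a nitric oxide-dependent increase. It gave 1 to 3 in non-β endocrine cells with cytokines and NMMA against untreated, 1 to 2 and 0 to 1 in endothelial cells with cytokines and with cytokines and NMMA against untreated, 3 to 4 and 0 to 1 for the differences between β-cells and endothelial cells, and 0 to 2 in the Nos2 split. The log2 change of Dusp4 in non-β endocrine cells, given as a description, ran from 3.09 to 4.68 against untreated and from 2.59 to 4.17 against cytokines with NMMA. Without either replicate the Dusp4 share was 11.5% to 15.3% and its α-cell level 44.9 to 123 CPM. Of 1020 such values of single members, 885 kept direction and side of the threshold and 70 turned direction.

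The count of all genes called moved by over 1.5 times with the replicate block, from 2457 to 5185 in β-cells for cytokines against cytokines with NMMA, from 2890 to 5215 for cytokines with NMMA, from 0 to 457 for NMMA alone (121 without the filter, 14 with DESeq2), from 1183 to 2202 and from 1167 to 2113 in the first 2 of these in non-β endocrine cells, from 238 to 457 in macrophages and from 479 to 784 in endothelial cells with cytokines. With cytokines and NMMA against untreated it moved from 333 to 618 in macrophages and from 496 to 756 in endothelial cells. DESeq2 lowered it to 630 and 750 in those comparisons of non-β endocrine cells and to 1474 from 2384 with cytokines, and to 150 and 202 in macrophages. Without the filter macrophages had 437 and 532, and in the Nos2 split 666 became 1202 with cells not thinned. In macrophages for cytokines against cytokines with NMMA 6 became 3 with DESeq2, 66 without the filter and 51 with the block. In endothelial cells there 0 became 3, 19 and 15, with NMMA alone the filter changed 0 to 6 in endothelial cells, and non-β endocrine cells and macrophages had 9 and 1 with the block and 2 and 1 without the filter. Total UMI scaling gave 1817 instead of 1183 in non-β endocrine cells, and no filter 68 instead of 108 for β-cells against macrophages. Beside the 5 changes given with the β-cell results, the replicate block changed no call of a tested member. With cells thinned to 1000 UMIs, 5 instead of 4 members were highest in an endocrine class untreated. Macrophages (28 to 72 cells a library) and endothelial cells (14 cells at the least) limit what could be called there.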
